A study of Mus musculus with 48 samples.

Results

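The prefrontal cortex (PFC) and the dentate gyrus (DG) of wild-type mice were compared gene by gene in RNA-seq libraries of whole tissue. The members were chosen by their titles. They comprise the 6 wild-type mice with PFC in the title and the 5 wild-type mice titled 3moFmn2wt, which makes 11 of the 48 deposited samples, or 11 of 46 mice. The study as a whole asked how loss of Formin 2 (Fmn2), a protein that nucleates actin filaments, and an amyloid transgene act on gene expression in the mouse brain.

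The 6 PFC mice were wild type, carried no transgene, had strain C57BL/6J and age 4 months in their labels, and served as controls of the APPPS1-21 amyloid mice. Their tissue field names the dentate gyrus while their titles name the PFC, and the titles also hold the string 1x4x8mo. The 5 DG mice were wild type, C57BL/6J and 3 months old, and served as controls of the Fmn2 knock-out mice. The 11 mice had no transgene and no deletion in their labels, and their libraries were all sequenced on lane 5. Region, experiment and labelled age (4 against 3 months) coincide, so what each of them adds to a difference cannot be told apart. Each library is 1 mouse by its title number. The labels do not say whether litters or dissection days were shared, so the p-values measure the spread between these mice only.

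The DG is the entry region of the hippocampus. Most of its neurons are granule cells, small glutamatergic neurons whose axons, the mossy fibres, contact hilar mossy cells and CA3 pyramidal cells, and new granule cells are added in the adult. The PFC is layered neocortex, in which upper-layer pyramidal neurons project mainly within the cortex and deep-layer neurons project to subcortical targets. Both regions hold GABAergic interneurons, astrocytes, oligodendrocytes, microglia and vessels.

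The libraries held between 16479658 and 25184663 reads in genes in PFC (median 20908544) and between 19554931 and 34083622 in DG (median 23137670). The spread between mice of 1 group was alike, with a biological coefficient of variation of 9.19% in PFC and 9.62% in DG. No pair of libraries of a group agreed within sampling noise, since the chi-square per degree of freedom lay between 3.56 and 17.6. Levels are given in TMM-normalised read counts relative to library size (CPM) as mean ± SD over 6 PFC and 5 DG mice, and differences as log2 fold changes ± SE, PFC minus DG, so that a positive value is higher in PFC. A gene was called at an adjusted p under 0.05 (edgeR quasi-likelihood test) with a fold change of at least 2, that is 1.0 on the log2 scale. In such bulk samples, fewer cells of a type and less RNA per cell cannot be told apart.

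The titles, not the tissue field, matched the markers. Desmoplakin (Dsp), a junction protein that granule cells express, lay between 0.0499 and 0.306 CPM in PFC with a median of 0.149, against 130, 148, 122, 172 and 142 CPM in DG mice 1 to 5. The transcription factor Prox1, which specifies granule cells, lay between 10.9 and 19.8 CPM in PFC with a median of 12.6, against 192, 245, 212, 238 and 251 CPM in DG. The groups were far apart for both genes, with log2 fold changes of -9.72 ± 0.17 for Dsp and -4.09 ± 0.14 for Prox1. Dsp had 21 reads in PFC and 17405 in DG, a pooled DG to PFC ratio of 861 (563 to 1390), an interval for counting error only. Of 20 granule cell markers tested, 15 were called, all of them higher in DG, and the median log2 fold change was -2.14, against -0.01 over all 16661 genes tested. The remaining granule cell markers were Pdzd2, C1ql3, Pdyn, Trpc6 and Plk5, with values from -0.89 to -0.07 on the log2 scale.

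**Figure D1:**
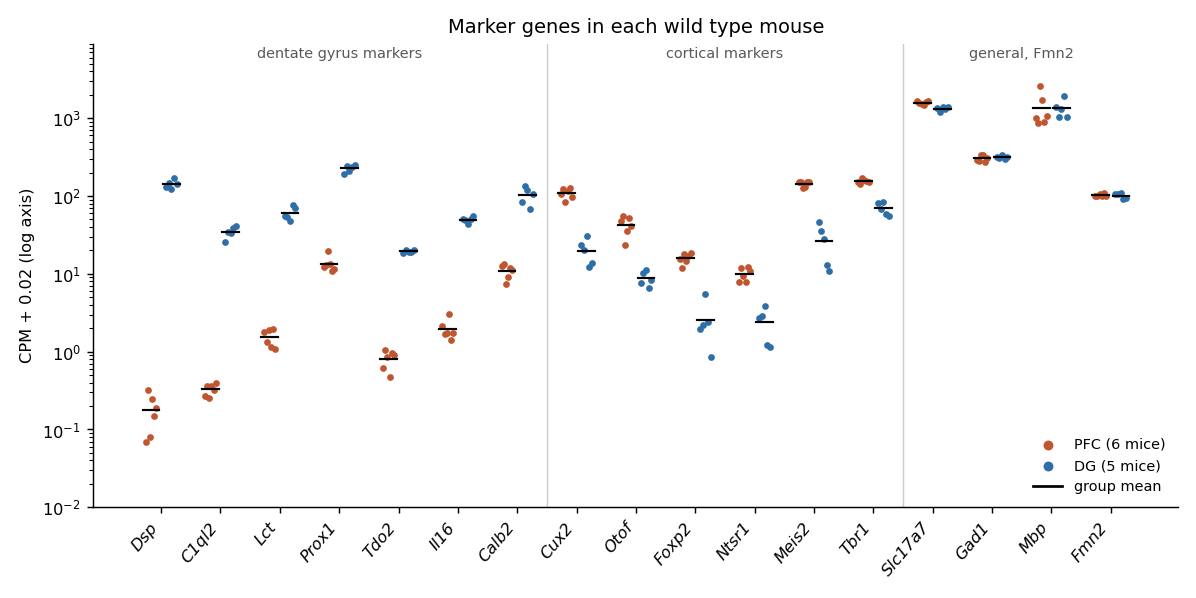
Each point is 1 wild-type mouse, in orange for PFC (6 mice) and blue for DG (5 mice), black lines are group means, and the vertical axis is CPM plus 0.02 on a log scale. The 7 dentate gyrus markers separate the groups without overlap, whereas Meis2 spreads from 10.7 to 46.9 CPM among the DG mice and Fmn2 lies near 100 CPM in both regions.

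Some cortical markers were higher in PFC, and their level among the DG mice was uneven. Meis2, a homeodomain factor of the forebrain, lay between 127 and 154 CPM in PFC with a median of 152, against 46.9, 35.2, 28.1, 13.1 and 10.7 CPM in DG mice 1 to 5. DG mice 1, 2 and 3 were therefore high and mice 4 and 5 low, without reaching the PFC range. The log2 fold change of Cux2, an upper-layer factor with 23.2, 20, 30.4, 12.1 and 13.9 CPM in DG, was 2.45 ± 0.24 with all 5 DG mice and 3.06 without DG mice 1, 2 and 3, an alternative chosen after the values were seen. Whether cortical tissue in the DG samples has a part in this was not tested. Leaving out DG mice 1, 2 and 3 moved the number of called genes from 3358 to 3764.

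Markers of neighbouring tissue also differed between the groups. Summed over the list, markers of meninges and fibroblasts gave 65.4 to 126 CPM in PFC and 137 to 265 CPM in DG, and 4 of 8 were called higher in DG (Lum, Ogn, Dcn and Igf2). The choroid plexus list gave 5.44 to 8.58 CPM in PFC and 26.4 to 67.95 CPM in DG. Its defining gene transthyretin (Ttr) stood at 19.5, 16.02, 13.0, 32.7 and 3.51 CPM in DG and at 2.15 CPM or less in PFC. Kl, from the same list, stood at 18.97 to 26.91 CPM in DG and at 2.56 CPM or less in PFC. Of the 4 members tested, Ttr and Kl were called higher in DG, whereas Col8a1 was called higher in PFC (2.61 against 1.14 CPM). Thalamic markers summed to 99.2 to 122 CPM in PFC and 185 to 202 CPM in DG, with Prkcd and Ntng1 called higher in DG. The other thalamic markers were not called, with log2 fold changes from -0.78 (Plekhg1) to 0.39 (Lef1). Markers of CA pyramidal fields did not move together, with 4 of 14 called higher in DG (Iyd, Dcn, Fibcd1 and Amigo2) and 2 in PFC (Mpped1 and Coch). The part of these tissues in the results below was not tested. Xist, the RNA of the inactive X chromosome in females, was at 0.427 CPM or less in each of the 11 mice.

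A large share of the transcriptome differed. Of 16661 genes tested, 3358 were called (20.2%), with 2012 higher in PFC (12.1%) and 1346 higher in DG (8.08%). The counts of each gene list in this report stand beside these shares. The groups did not overlap for 9703 genes (58.2%), and for 3105 of the called genes. The smaller DG set held the larger differences: 225 of its genes differed by at least 3 on the log2 scale and 93 by at least 5, against 184 and 36 of those higher in PFC. Protein-coding genes made up 69.8% of the calls in PFC, 76.7% of those in DG and 90.1% of the genes not called. The median GC content of the exons was 52.9% for genes higher in PFC and 48.3% for genes higher in DG, and across genes the log2 fold change correlated with GC content at a Spearman's rho of 0.296 over 16620 genes, which share the 11 libraries and are not independent. After correction for gene length and GC content 3075 genes were called, 1773 higher in PFC and 1302 higher in DG.

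Comparisons within DG gave fewer calls than those between the regions. DG of wild-type mice at 8 against 3 months gave 33 calls among 16325 genes (0.202%), and 4 to 157 when 1 mouse was left out (4 without 3-month mouse 2, 157 without 8-month mouse 2). The 3-month DG against the DG of amyloid mice from another experiment, which also differ in genotype, gave 850 among 17337 (4.90%). The 8-month mice 1, 2 and 3 held 43921030, 6818809 and 8381078 reads in genes, and the 3-month mice 19554931 to 34083622. Group size and depth thus differ between these comparisons, and the number of calls depends on both, so the counts do not rank region, age and experiment. Both comparisons share libraries with the regional ones and are given as counts only.

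**Figure D2:**
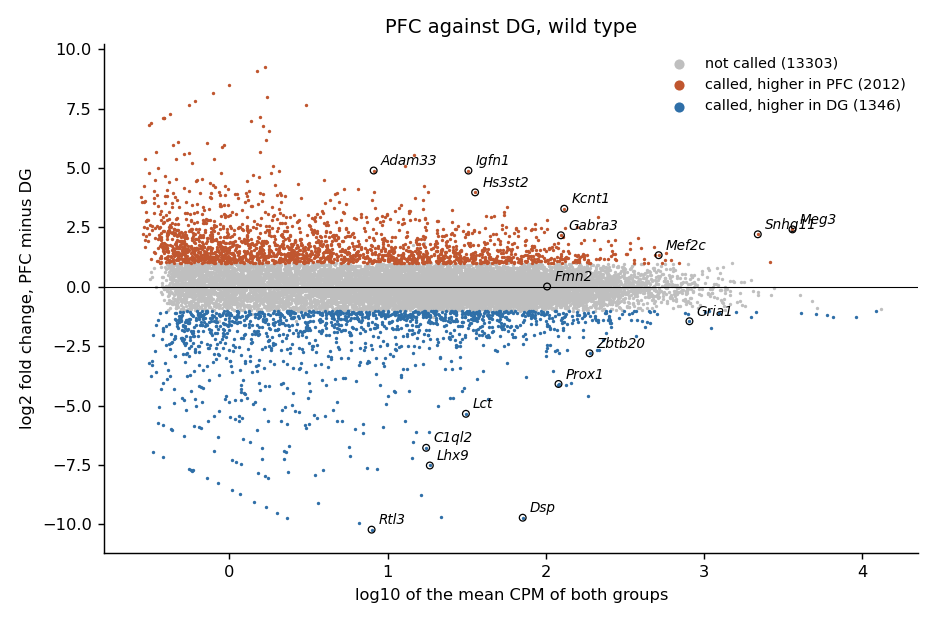
Each point is 1 of 16661 genes, with the log10 of the mean CPM of both groups on the horizontal axis and the log2 fold change (PFC minus DG) on the vertical axis. Grey points are the 13303 genes not called, orange the 2012 called higher in PFC and blue the 1346 called higher in DG, with Dsp and Rtl3 the lowest of the labelled genes and Fmn2 on the zero line.

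The genes with the largest differences toward DG included the granule cell markers Dsp, C1ql2 and Lct. Rtl3, a gene derived from a retrotransposon, had 1 read in all PFC libraries against 1932 in DG, a pooled ratio of 2010 with a 95% counting interval of 360 to 79300. Lhx9, a LIM homeodomain factor, was at 0.0499 to 0.344 CPM in PFC and at 36.0, 37.5, 32.5, 32.8 and 45.3 CPM in DG (log2 fold change -7.52 ± 0.18), with 25 reads in PFC and 4550 in DG, a pooled DG to PFC ratio of 189 (128 to 292). C1ql2, a secreted C1q-like protein that organises mossy fibre synapses, was at 0.236 to 0.381 CPM in PFC and at 26, 34.7, 33.1, 38.6 and 41.6 CPM in DG (-6.78 ± 0.16). In these genes every DG mouse stood at least an order of magnitude above every PFC mouse. Frem3, a basement membrane protein of the FRAS1 family, had 4 reads in PFC and 935 in DG, a pooled ratio of 243 (94.5 to 893). The sodium/proton exchanger Slc9a4 (0.425 ± 0.13 against 29.8 ± 5.6 CPM), the cell-surface protein Cd109 (0.531 ± 0.34 against 36.3 ± 5.4) and lactase (Lct, 1.51 ± 0.39 against 61.1 ± 11.8) followed. Lower in level were keratin 2 (Krt2, -6.16), the phospholipase Pla2g2f (-5.93) and olfactomedin 4 (Olfm4, -5.42). Desmocollin 3 (Dsc3), a desmosomal cadherin as Dsp is a desmosomal plaque protein, averaged 5.07 ± 5.14 CPM in DG against 0.125 ± 0.11 in PFC, so its DG level varied as much between mice as it amounted to. Eno1b, Tuba1c and Eif3j2, also among the 15 lowest, share 85%, 56.4% and 93.2% of their 50-base words with other annotated genes, and are taken up with the gene copies.

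Toward PFC, among protein-coding genes with a mean of at least 5 CPM in PFC that were also called in amyloid mice, the largest differences were those of Adam33 and Igfn1. The metalloprotease Adam33 lay between 10.5 and 20.8 CPM in PFC with a median of 16.7, against 0.471, 0.748, 0.832, 0.176 and 0.368 CPM in DG (4.90 ± 0.29). Igfn1, an immunoglobulin-like and fibronectin domain protein, lay between 46.6 and 77.0 CPM in PFC with a median of 63.99, against 0.837, 0.374, 6.25, 0.658 and 1.14 CPM in DG (4.89 ± 0.53), where mouse 3 stood apart. Hs3st2, which sulphates heparan chains, lay between 60.4 and 74.2 CPM in PFC with a median of 68.1, against 4.81, 3.10, 9.09, 2.28 and 1.47 CPM in DG (3.98 ± 0.36). That the groups did not overlap was a condition for naming these genes. The alpha-1B adrenergic receptor Adra1b (31.3 ± 2.3 against 2.41 ± 0.92 CPM), the myosin light chain Myl4 (34.0 ± 3.3 against 1.99 ± 1.32) and the mucin Muc3a (32.1 ± 7.1 against 1.73 ± 0.29) were also about an order of magnitude higher in PFC. The other 9 of the 15 were Krt80, Mylk3, Eps8l1, Lipg, Col24a1, Etnppl, Tmc4, Dcdc2b and Pdzd7, with log2 fold changes from 3.49 to 4.52. Etnppl, an astrocytic phospholyase, had 3.76 ± 0.31 here and 1.39 in amyloid mice.

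Per kilobase of exon, the largest differences of level were in other genes. Toward PFC they were led by the long RNAs Snhg11 (423 ± 25 against 91.4 ± 9.9 CPM per kb) and Meg3 (338 ± 36 against 63.3 ± 8.6), followed by the axonal kinesin Kif5a (503 ± 84 against 247 ± 32) and Vxn (190 ± 10 against 45.6 ± 7.2). The presynaptic SNARE protein syntaxin 1A (Stx1a) stood at 165 ± 13 against 41.9 ± 10.3 CPM per kb, the chemokine Cx3cl1 at 238 ± 11 against 118 ± 6, the calcium-binding protein Efhd2 at 140 ± 9 against 46.3 ± 7.0, the exchange factor Ngef at 100 ± 3 against 26.6 ± 6.5, and Rgs4, a brake on G-protein signalling, at 162 ± 13 against 73.2 ± 15.9. Mir5125, a 79-base annotation, was the only short RNA among them. Toward DG they were 8 mitochondrially encoded genes, led by mt-Nd1 (5547 ± 733 against 13520 ± 1127 CPM per kb) and mt-Cytb (7127 against 14400), then the calcium sensor hippocalcin (Hpca, 175 ± 12 against 587 ± 67 CPM per kb) and the lipid carrier Apoe (306 ± 17 against 641 ± 57).

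The promoters of called genes were poorer in CpG than those of other genes. RefSeq promoters (GRCm38.p6, 250 bases before to 50 after the start) matched 11290 of 14417 protein-coding genes tested. A ratio of observed to expected CpG under 0.6 was found in 53.3% of promoters of genes higher in PFC and 49.6% of those higher in DG, against 27.2% of promoters of genes not called and 31.2% of all. Among genes that differed by at least 3 on the log2 scale these shares were 72% for PFC and 71.4% for DG. The motif TATAAA on the gene's strand, starting 45 to 16 bases before the start site, was found in 2.59% of promoters of genes higher in PFC, 2.43% higher in DG and 1.25% of all. The 150 bases before the start of 4 genes described here show the range, written 5′ to 3′ on the gene's strand with each CG in capitals. Dsp and Rgs4 have 16 and 8 CG, whereas Lct and Igfn1 have 1 each, and the window of Rgs4 holds tataaa starting 31 bases before the start. The sequences come from chr13:38151144-38151293 (plus strand, Dsp), chr1:128328319-128328468 (minus, Lct), chr1:169747643-169747792 (minus, Rgs4) and chr1:136006343-136006492 (minus, Igfn1).
Dsp: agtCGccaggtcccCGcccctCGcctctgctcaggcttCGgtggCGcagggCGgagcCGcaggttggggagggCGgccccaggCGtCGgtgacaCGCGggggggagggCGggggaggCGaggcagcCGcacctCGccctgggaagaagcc
Lct: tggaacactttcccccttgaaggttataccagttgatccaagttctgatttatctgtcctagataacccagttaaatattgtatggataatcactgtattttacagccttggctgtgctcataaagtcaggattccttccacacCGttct
Rgs4: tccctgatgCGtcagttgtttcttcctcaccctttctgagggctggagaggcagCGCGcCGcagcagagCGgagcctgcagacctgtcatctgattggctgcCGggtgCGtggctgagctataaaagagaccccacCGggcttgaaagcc
Igfn1: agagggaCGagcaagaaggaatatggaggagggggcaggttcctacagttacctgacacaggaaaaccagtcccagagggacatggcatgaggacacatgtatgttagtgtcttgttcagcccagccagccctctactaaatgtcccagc

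Transcription factors that pattern the telencephalon divided between the regions. Of 24 tested, 11 were called higher in DG and 5 in PFC, beside 8.08% and 12.1% of all genes. Beside Prox1, the DG set held Zbtb20, which directs hippocampal identity (47.8 ± 7.2 CPM in PFC, 331 ± 31 in DG), Bhlhe22 (31.1 ± 4.8 against 172 ± 16), Neurod1, a factor of granule neuron maturation (8.33 ± 0.67 against 46.4 ± 3.5), and Nr2f2 (6.91 ± 0.69 against 27.2 ± 7.2). The PFC set included Cux2, Meis2, Mef2c, a factor of synapse development (742 ± 52 against 294 ± 104.1 CPM), and Tbr1 (155 ± 9 against 69.4 ± 12.7). Lhx2, Emx1, Pax6 and Nr2f1, which act in the developing forebrain, had log2 fold changes between -0.37 and 0.19 and were not called, whereas Emx2 was called higher in DG (10.8 ± 0.9 against 23.5 ± 1.9 CPM). Neurod6, a pyramidal neuron factor, was at 123 ± 23 CPM in PFC and 397 ± 44 in DG (-1.69 ± 0.13) but had 0.22 ± 0.14 in the amyloid mice.

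Layer markers were called in both directions, beside 12.1% of all genes called higher in PFC and 8.08% in DG. Of 19 deep-layer markers, 8 were called higher in PFC, among them Foxp2 (15.9 ± 2.5 against 2.55 ± 1.71 CPM), the neurotensin receptor Ntsr1 of corticothalamic cells (10 ± 1.9 against 2.35 ± 1.18) and the mTOR inhibitor Deptor (42.3 ± 4.3 against 11.2 ± 3.3), and Bcl11b and Nr4a2 were called higher in DG. Of 12 upper-layer markers 4 were called higher in PFC, among them Cux2 (109 ± 16 against 19.9 ± 7.4 CPM), Otof (42.5 ± 11.8 against 8.75 ± 1.93) and Lamp5, and 3 higher in DG, Calb1, Mdga1 (14.9 ± 3.1 against 60.7 ± 3.2) and Scnn1a (1.21 ± 0.40 against 15.6 ± 1.4). Calb1, a calcium buffer, is also a granule cell marker. Of the deep-layer markers Fezf2, the subcortical projection factor, had 0.93 on the log2 scale and was not called.

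**Figure D3:**
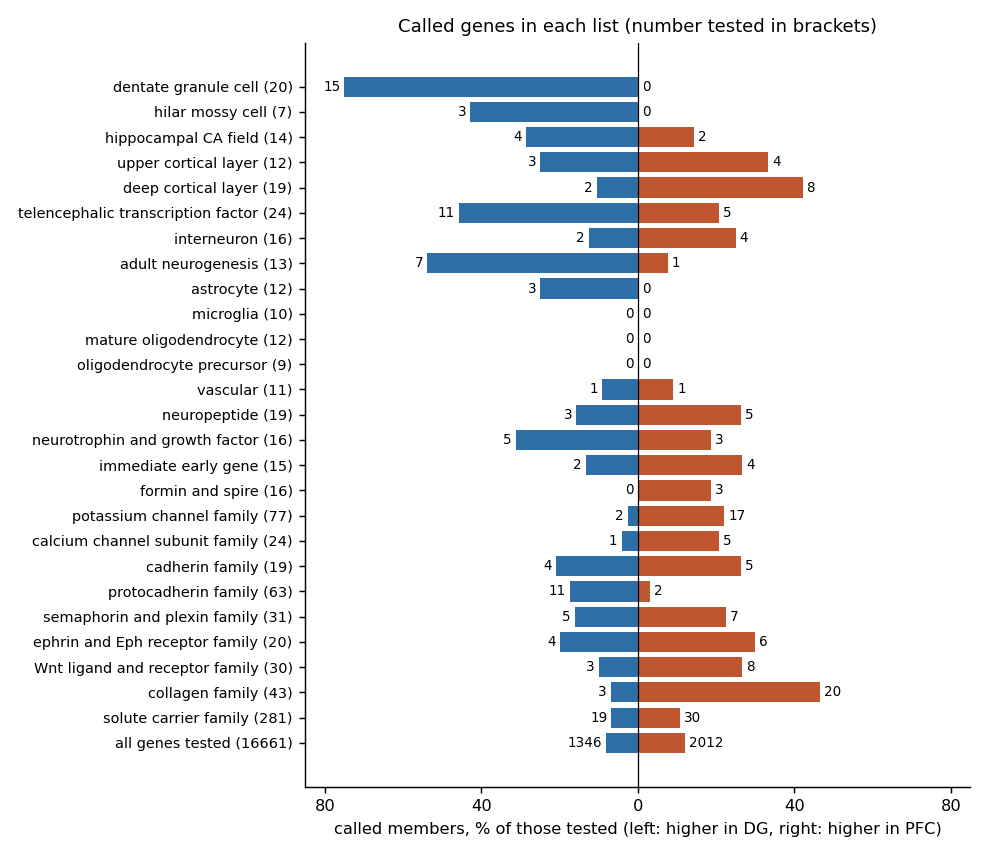
Bars give the share of tested members of each gene list that were called, in % of those tested, to the left for genes higher in DG and to the right for genes higher in PFC, with the counts at the bar ends and the number tested in brackets. The lowest bar gives all 16661 genes, and of the lists drawn the granule cell list reaches furthest to the left with 15 of 20 and the collagens furthest to the right with 20 of 43.

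Markers of glia other than astrocytes stayed under the fold threshold. None of 12 mature oligodendrocyte, 9 oligodendrocyte precursor and 10 microglial markers was called in edgeR or in DESeq2, while 1, 3 and 9 of them had an unadjusted p under 0.05 in edgeR. Their median log2 fold changes were 0.04, -0.02 and 0.42, and 9 of the 10 microglial markers did not overlap between the groups, with Csf1r at 94.5 against 63.3 CPM and P2ry12 at 33.9 against 66.5 CPM. Over all genes tested, 58.2% did not overlap. The oligodendrocyte markers summed to 2306 to 6581 CPM in PFC and 2295 to 4524 CPM in DG, so the groups overlapped. Among 12 astrocyte markers, the filament protein Gfap (58.2 ± 8.5 against 364 ± 69 CPM), angiotensinogen (Agt, 3.09 ± 0.55 against 19.5 ± 5.2) and the water channel Aqp4 (83.7 ± 5.3 against 185 ± 15) were called higher in DG. The glutamate transporter Slc1a2 stood at 2700 against 2815 CPM and was not called.

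Of 16 interneuron genes, 4 were called higher in PFC and 2 in DG, beside 12.1% and 8.08% of all genes. The general markers Gad1 (306 against 315 CPM), Sst (162 against 119) and Pvalb (38.4 against 28.3) were not called. Vasoactive intestinal peptide (Vip) lay between 41.3 and 60.7 CPM in PFC with a median of 49.5, against 14.2, 15, 26.2, 9.92 and 8.77 CPM in DG (1.76 ± 0.27), and Tac2 and Crh, which mark overlapping cells, were called in the same direction. Chodl, of long-range Sst cells, had 98 reads in PFC and 5 in DG, a pooled ratio of 18.9 (7.82 to 59.4). Adarb2 (19.9 ± 2.5 against 82.6 ± 9.4 CPM) and Ndnf (13.8 ± 1.6 against 43.8 ± 8.4) were called higher in DG. Of 11 vessel genes, Cldn5 was called higher in PFC and Acta2 in DG.

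Genes tied to adult neurogenesis were mostly higher in DG. Of 13 tested, 7 were called higher in DG, among them Calb2, which immature granule cells and mossy cells express (10.9 ± 2.3 against 102.2 ± 26 CPM), Neurod1, Sox11 (11.3 against 22.7), the proliferation gene Mki67 (1.17 against 3.04), Draxin (0.243 against 1.40) and Igfbpl1 (0.0993 against 1.09). Doublecortin (Dcx), a microtubule protein of migrating neurons, went the opposite way, between 45.1 and 68.2 CPM in PFC with a median of 60.2, and at 21.9, 18.6, 29.8, 17.9 and 21.4 CPM in DG (1.38 ± 0.14). The groups did not overlap for Dcx. Mossy cell markers other than Calb2 that were called higher in DG were Csf2rb2 and Drd2, 3 of 7 in all.

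Receptor genes were called in both directions, beside 12.1% of all genes called higher in PFC and 8.08% in DG. Among ionotropic glutamate receptors, Gria1, an AMPA receptor subunit, lay between 392 and 470 CPM in PFC with a median of 441, against 1103, 1193, 1061, 1293 and 1283 CPM in DG (-1.45 ± 0.06). The other AMPA subunits were not called, with Gria2 at -0.36, Gria3 at 0.65 and Gria4 at 0.94 on the log2 scale. The groups did not overlap for any of the 4, beside 58.2% of all genes tested. None of 6 NMDA receptor subunits was called in edgeR or DESeq2, and 5 had an unadjusted p under 0.05 in edgeR, with values between -0.71 (Grin2a) and 0.76 (Grin2d). Of 5 kainate receptor subunits, Grik3 was called higher in PFC (157 ± 10 against 52.3 ± 12.5 CPM) and Grik2 in DG (63 against 129). Of 7 metabotropic receptors, the presynaptic or astrocytic Grm8, Grm4 and Grm3 were called higher in PFC.

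GABA-A receptor alpha subunits, which set the pharmacology of the channel, split by region. Gabra3 lay between 188 and 222 CPM in PFC with a median of 203, against 55.0, 44.6, 67.1, 29.6 and 30.3 CPM in DG (2.17 ± 0.21). Gabra2 (98 ± 16.4 against 381 ± 29 CPM) and Gabra5 (65.5 ± 6.4 against 280 ± 30), the subunit of extrasynaptic hippocampal receptors, went the other way. In all 3 of 13 subunits were called in each direction, with Gabrq and Gabrg3 in PFC and Gabrb1 in DG. Of all genes 12.1% were called higher in PFC and 8.08% in DG. The groups did not overlap for Gabra2, Gabra3 and Gabra5, as for 58.2% of all genes tested.

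Monoamine, opioid and acetylcholine receptors also differed by member, beside 12.1% of all genes called higher in PFC and 8.08% in DG. The serotonin receptor Htr4, coupled to cyclic AMP, lay between 0.510 and 1.30 CPM in PFC with a median of 1.05, against 16.3, 25.6, 19.3, 21.7 and 22.1 CPM in DG (-4.38 ± 0.15). Htr2a, the cortical receptor of psychedelic drugs, was called the other way (20.4 ± 1.2 against 8.85 ± 2.07 CPM), as was Htr1b (10.2 against 3.47), while Htr1a had 24.2 against 37.6 CPM and was not called. All 4 called adrenergic receptors of 8 tested were higher in PFC, namely Adra1b, Adrb3 (2.61 against 0.394 CPM), Adra1a and Adrb1. The dopamine receptors Drd5 (2.85 against 9.07 CPM) and Drd2 (0.958 against 2.87) were called higher in DG, and Drd1 (14.7 against 10.9) was not called. The kappa opioid receptor Oprk1 (9.44 ± 2.36 against 1.10 ± 0.45 CPM) and the delta receptor Oprd1 were higher in PFC. The nicotinic subunits Chrna4 (50.7 against 15.7 CPM) and Chrna5 were higher in PFC and Chrna7 (10.04 against 26.5) in DG.

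Steroid signalling differed at the mineralocorticoid receptor. Nr3c2, which binds corticosterone with high affinity, lay between 29.8 and 36.4 CPM in PFC with a median of 30.5, against 187, 202, 197, 219 and 208 CPM in DG (-2.67 ± 0.06). The glucocorticoid receptor Nr3c1 stood at 113 against 99.7 CPM and was not called. Fkbp5, a chaperone that is induced by and restrains the glucocorticoid receptor, was at 26 ± 3.4 CPM in PFC and 82.2 ± 5.8 in DG (-1.66 ± 0.08). Of the other nuclear receptors Rxrg, Thrb and Rara were called higher in PFC. Pgr and Esr1, the receptors of progesterone and oestrogen, had 0.60 and 0.66 on the log2 scale and were not called.

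**Figure D4:**
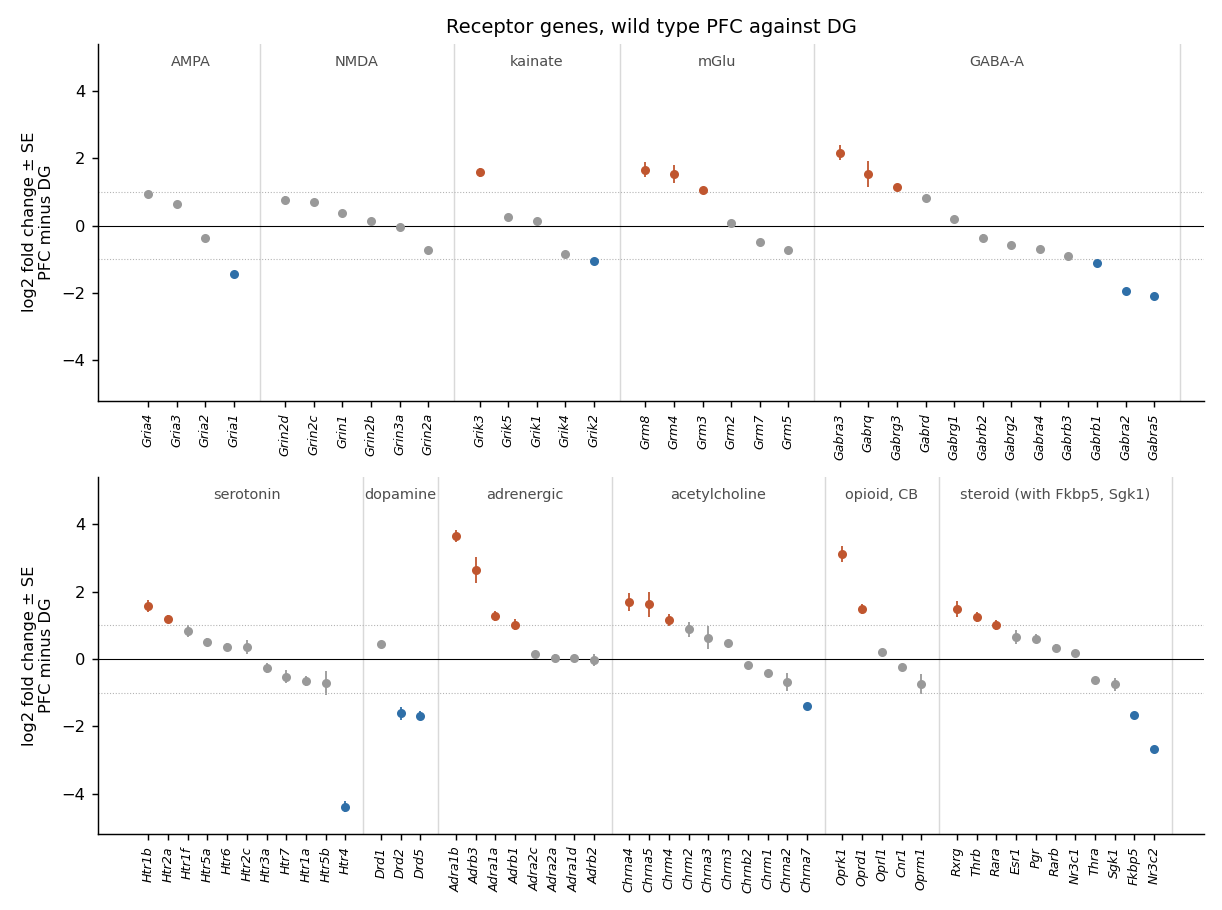
Points are log2 fold changes (PFC minus DG) with bars of 1 SE for tested receptor genes, grouped by transmitter and ordered by value, and dotted lines mark a log2 fold change of 1.0 in either direction. Orange genes were called higher in PFC and blue in DG, with Htr4 lowest at -4.38, Adra1b highest at 3.66 and no NMDA receptor subunit called.

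Among ion channels, potassium and calcium channel genes were examined. Of 77 potassium channel genes, 17 were called higher in PFC and 2 in DG, and of 24 calcium channel subunits 5 and 1, and after the correction for length and GC content these counts were 11 and 4, and 3 and 2, beside 1773 and 1302 of the 16620 genes tested after it (12.1% and 8.08% of all genes without the correction). The sodium-activated potassium channel Kcnt1 lay between 207 and 262 CPM in PFC with a median of 236, against 31, 20.9, 31.1, 19.7 and 18.9 CPM in DG (3.29 ± 0.15). Kcnh4 (30.6 ± 6.8 against 4.78 ± 0.996 CPM), the leak channel Kcnk3 (29.2 against 5.62) and Kcnf1 (208 against 48.2), a silent modifier of Kv2 channels, were called in the same direction. Kcng2 (3.11 ± 0.42 against 19.3 ± 2.0 CPM) and Kcna4 (19.9 against 53.6) were higher in DG. Among calcium channels the T-type pore Cacna1g lay between 123 and 168 CPM in PFC with a median of 147, against 24.7, 24.2, 29.7, 18.3 and 21.9 CPM in DG (2.64 ± 0.12). Cacna1i, also T-type, was called the same way (130 against 39.5 CPM), whereas the remaining T-type gene Cacna1h had 75.3 against 115 CPM and was not called. Cacng6 was the subunit called higher in DG (0.966 ± 0.060 against 7.41 ± 0.66 CPM).

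Secreted peptides and growth factors differed in both directions. Neurotrophin 3 (Ntf3), a ligand of TrkC, lay between 0.413 and 1.53 CPM in PFC with a median of 0.905, against 16.8, 25.3, 19.0, 20.3 and 25.2 CPM in DG (-4.44 ± 0.22). Bdnf (39.9 ± 6.0 against 81.1 ± 9.7 CPM), the ligand of TrkB, was also called higher in DG, together with Tgfa and Igf2. Igf2 is also in the meningeal list, whose sum was higher in DG, and shares 61.6% of its words with other genes. The receptors Ntrk2 (639 against 615 CPM) and Ntrk3 (284 against 268) were not called. Toward PFC the growth factors were Bmp3, which lay between 38.8 and 51.3 CPM in PFC against 6.86, 5.13, 10.8, 4.52 and 5.86 CPM in DG (2.72 ± 0.20), and Nrg1 and Vegfa near the fold threshold. Of 19 neuropeptide genes, Vgf (176 ± 19 against 50.1 ± 5.5 CPM), Vip, Tac2, Crh and Adcyap1 were called higher in PFC and Gal, Nts and Scg2 in DG. Galanin (Gal) had 5 reads in PFC and 275 in DG, a ratio of 57.1 (24.2 to 177). Neurotensin (Nts) was at 19.6, 11.1, 5.73, 6.94 and 0.368 CPM in DG mice 1 to 5, of which mouse 5 lay within the PFC range of 0.177 to 0.846 CPM. Cck, Npy and Pdyn had log2 fold changes between -0.15 and -0.04.

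Cell adhesion and guidance genes showed member-specific differences as well. Their counts stand beside 12.1% of all genes called higher in PFC and 8.08% in DG. Protocadherin 20 (Pcdh20) lay between 13.0 and 18.8 CPM in PFC with a median of 16.7, against 257, 288, 244, 277 and 300 CPM in DG (-4.05 ± 0.09). Of 63 protocadherins 11 were called higher in DG, 7 of them of the clustered beta set, and 2 in PFC (Pcdh15 and Pcdh10). Of 31 semaphorins, plexins and neuropilins, 7 were called higher in PFC, among them the repellent Sema3a (24.3 ± 1.6 against 3.37 ± 1.99 CPM), Sema4a and Plxnd1, and 5 in DG, among them Sema5a (59.2 ± 6.0 against 373 ± 24), its family's largest difference there, and the receptors Nrp1 (20.6 against 66.7) and Nrp2 (32.9 against 136). Of 20 ephrin and Eph genes, 6 were called higher in PFC, with the kinase-dead Ephb6 (270 ± 25 against 47.4 ± 7.0 CPM) largest, and 4 in DG, all EphA receptors, with Epha7 at 80.2 ± 5.6 against 378 ± 42. Of 19 cadherins 5 were called higher in PFC, among them Cdh4, and 4 in DG, among them Cdh9 (23 against 121 CPM). Of 7 C1q-like organisers of synapses Cbln2 was called higher in PFC (50.5 ± 5.9 against 9.86 ± 3.07 CPM) and C1ql2 in DG. Of 30 Wnt pathway ligands and receptors 8 were called higher in PFC, led by Wnt10b (1.82 against 0.146 CPM) and Dkkl1 (26.4 against 3.42), and 3 in DG, led by Wnt9b (0.279 against 2.44). After the correction for length and GC content, 4 semaphorin-family genes were called in PFC and 6 in DG. For ephrin and Eph genes these counts were 4 and 7, so in both families the larger count moved to DG. Protocadherins had 2 and 9, cadherins 5 and 4, C1q-like organisers 1 and 2, and Wnt genes 6 and 4.

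Collagen genes were often higher in PFC. Of 43 tested, 20 were called higher in PFC and 3 in DG, a median log2 fold change of 0.91. Collagen VI chain Col6a1 lay between 134.7 and 212 CPM in PFC with a median of 172, against 26.01, 28.2, 20.8, 34.0 and 48.0 CPM in DG (2.44 ± 0.21). Col24a1 (8.66 ± 1.56 against 0.630 ± 0.456 CPM), Col28a1, Col17a1 and Col2a1 had log2 fold changes from 3.15 to 3.90. The fibrillar chains Col1a1 and Col1a2, which are in the fibroblast list, had 0.58 and 0.46 and were not called. Col25a1, a transmembrane collagen of neurons that is found in amyloid plaques, was called higher in DG (59.3 ± 5.4 against 198 ± 18 CPM). The summed meningeal markers, given above, were lower in PFC than in DG in each mouse, but the members of that list differed. Lum, Ogn, Dcn, Igf2 and Aldh1a2 had the higher mean in DG, and Col1a1, Col1a2 and Slc6a13 in PFC. The part of meningeal tissue in the collagen differences was not tested.

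Activity-regulated genes varied between mice of 1 group. Of 15 immediate early genes, Nr4a1, Egr4, Egr1 and Fosb were called higher in PFC, and Jun and Nr4a3 in DG. Jun lay between 19.2 and 32.5 CPM in PFC with a median of 27.1, against 115, 123, 112, 137 and 129 CPM in DG (-2.21 ± 0.11). Egr1 lay between 196 and 650 CPM in PFC with a median of 339, against 160, 136, 264, 115 and 77.3 CPM in DG, so the groups overlapped. The groups did not overlap for 3 of the 15 genes, beside 58.2% of all genes tested. The list summed to 2313 CPM in PFC mouse 6 and to 543 to 1140 CPM in the other PFC mice. With DG of 8-month-old mice in place of 3-month-old mice, 11 of the 15 were called higher in PFC, and without DG mice 1, 2 and 3 it was 2.

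Fmn2, the gene of the study, did not differ measurably between the regions. It was at 99.8 to 108 CPM in PFC with a median of 100.6, and at 106.5, 105.7, 108, 92.2 and 95.5 CPM in DG, so the groups overlapped. The log2 fold change was 0.01 ± 0.05 (edgeR adjusted p = 0.79), and a 2-sided exact permutation test on log2 CPM over the 11 mice gave a difference of 0.02 (p = 0.723). In the knock-out DG of the same experiment Fmn2 still had 21.6 to 28.2 CPM. Of 16 formin and Spire genes, which nucleate actin with Fmn2 or like it, 3 were called, all of them higher in PFC. Of all genes, 12.1% were called higher in PFC and 8.08% in DG. Fhod3, a formin known from heart muscle, lay between 87.2 and 101.8 CPM in PFC with a median of 95.7, against 16.4, 14.7, 30.98, 10.1 and 9.27 CPM in DG (2.53 ± 0.29). Inf2 (189 ± 45 against 78.1 ± 8.8 CPM) and Fhod1 (9.60 against 4.59) were nearer to the fold threshold, and after the correction for length and GC content 1 formin was called. Spire1, a partner of Fmn2, stood at 206 against 195 CPM and was not called.

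Of 17 genes of amyloid processing and dementia risk, 4 were called, beside 20.2% of all genes. Abca7, a lipid transporter, lay between 35.9 and 41.5 CPM in PFC with a median of 38.3, against 8.63, 7.58, 8.93, 8.56 and 8.93 CPM in DG (2.17 ± 0.06). Bace2 was called higher in PFC (3.42 against 1.36 CPM) and Apoe in DG. App (1840 against 1604 CPM), Mapt (639 against 442) and Clu (626 against 890) were not called.

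Mitochondrially encoded genes were higher in DG in these mice. Their summed CPM made up 3.77 to 4.71% of the TMM-normalised library size in PFC and 7.73 to 9.63% in DG. The complex I subunit mt-Nd1 lay between 4694 and 6468 CPM in PFC with a median of 4958, against 12590, 14340, 13090, 11380 and 13290 CPM in DG (-1.28 ± 0.08). Of 7 tested, 5 were called higher in DG, the others being mt-Co1 (-0.93) and mt-Nd5 (-0.88). After the correction for length and GC content the 5 called genes had between -0.98 and -0.59 and were under the fold threshold, and mt-Nd1 had -0.16 ± 0.07 in the amyloid mice. Of 80 nuclear-encoded subunits of the respiratory chain, 2 were called higher in PFC and 3 in DG, with a median of -0.39.

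Some of the largest differences lay in genes with near-identical copies, where the assignment of reads is uncertain. Of 1423 tested genes that share at least 10% of their 50-base words with another gene, 26.9% were called, against 19.5% of 15195 genes without such sharing. The ribosomal protein gene Rps3a1 was at 22.2 to 27.9 CPM in PFC and at 0.481 to 0.942 in DG, and its pseudogene Rps3a3 at 0.0861 CPM or less in PFC and at 40.8, 45.6, 40.3, 45.4 and 44.4 CPM in DG. Rps3a1 shares 70.1% and Rps3a3 64.9% of their words with other genes, and Rps3a1 had 0.75 on the log2 scale in amyloid mice. Of 77 ribosomal protein genes 6 were called higher in PFC and 9 in DG, beside 12.1% and 8.08% of all genes. Without the genes with shared words these counts were 1 and 3. Eno1b, Tuba1c and Eif3j2 were high in DG while their relatives Eno1 (189 against 66.5 CPM) and Eif3j1 were called higher in PFC. Tuba1b had 0.93 on the log2 scale and was not called. Of 289 processed pseudogenes 134 were called higher in DG and 35 in PFC. Antisense RNAs (162 of 510 higher in PFC, 38 in DG) and long intergenic RNAs (134 of 492 and 67) leaned toward PFC, but the sources do not say whether counting used the strand, so reads of a gene and its antisense partner cannot be told apart.

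Few genes were on in 1 region and off in the other. With at least 1.0 CPM in every mouse of a group and at most 0.1 CPM in every mouse of the other, 32 genes were on in DG, 13 of them protein-coding, and 11 were on in PFC, 3 of them protein-coding. In DG these included the ghrelin receptor Ghsr (3 reads in PFC and 396 in DG, a ratio of 137 with an interval of 46.6 to 667), Gal, Rtl3, the serpins Serpina3f, Serpina3k and Serpina3m, and Gbp2b, an interferon-induced GTPase, with 0 reads in PFC and 289 in DG (at least 100-fold higher by a floor of 3 counts over the group). In PFC they included the hormone Erfe (223 and 3 reads, ratio 71.6, 24.2 to 350) and Trim12a (254 and 0 reads, at least 81.5-fold higher by the same floor). Trim12a had 1.26 on the log2 scale in amyloid mice and shares 10.9% of its words with other genes. Serpina3k and Serpina3f share 12.4% and 9.71% of theirs, and Serpina3m shares words too. None of these serpins passed the filter on low counts in the amyloid comparison, whose DG mice come from another experiment. In the wild-type DG mice Serpina3m stood at 11.7 to 14.9 CPM and Serpina3f at 6.02 to 8.50 CPM. Whether their difference goes with the region or with the experiment was not tested. These intervals cover counting error only.

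A further set of mice that shares no library with the wild-type set was compared in the same way. The 6 amyloid mice with PFC in the title (label APP, 4 months, from the experiment of the wild-type PFC mice) were set against 16 amyloid mice of the DG (3 months, C57BL/6J, labelled FMN2-/-_APP or FMN2 +/+ APP), with both DG groups weighted alike. The Fmn2 reads went against these genotype labels, at 83.3 to 101.8 CPM in the libraries labelled FMN2-/-_APP and 18.9 to 23.4 CPM in those labelled FMN2 +/+ APP, so the log2 fold change of Fmn2 there, 1.26, is not used here. Of the 16 DG mice 9 had more than 100 CPM of Xist and 2 less than 1.0 CPM, whereas Ttr ranged from 16.9 to 8803 CPM.

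Among 17570 genes tested in the amyloid mice 3595 were called (20.5%), 2024 higher in PFC and 1571 in DG. Of the 3289 genes called in wild type that were tested there, 3236 had the same sign (98.4%). The same direction was called in both for 2260 genes, or 67.3% of the wild-type calls and 62.9% of the amyloid calls, 1343 higher in PFC and 917 in DG. Dsp had -9.72 ± 0.17 in wild type and -9.83 ± 0.37 in amyloid mice, Adra1b 3.66 ± 0.17 and 3.70 ± 0.23, Nr3c2 -2.67 ± 0.06 and -2.47 ± 0.10, and Kcnt1 3.29 ± 0.15 and 3.20 ± 0.16. Dsp and Adra1b were named by a rule that required the same call in amyloid mice, so their likeness between the sets was in part a condition of choice. Other genes differed more in size, such as Prkcd (-2.06 and -0.39), Inf2 (1.27 and 0.45) and Rps3a1 (5.09 and 0.75). The collagens kept their lean with 19 called higher in PFC and 1 in DG. Since both PFC groups come from 1 experiment, the experiment and the region remain confounded in this set too. Xist had a log2 fold change of -12.2 ± 2.9 here, so its level, a mark of females, also differed between these groups. The amyloid PFC libraries ran on lane 7 and the amyloid DG libraries on lanes 4, 5, 6 and 7. What sex and lane add to the differences in this set was not tested.

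**Figure D5:**
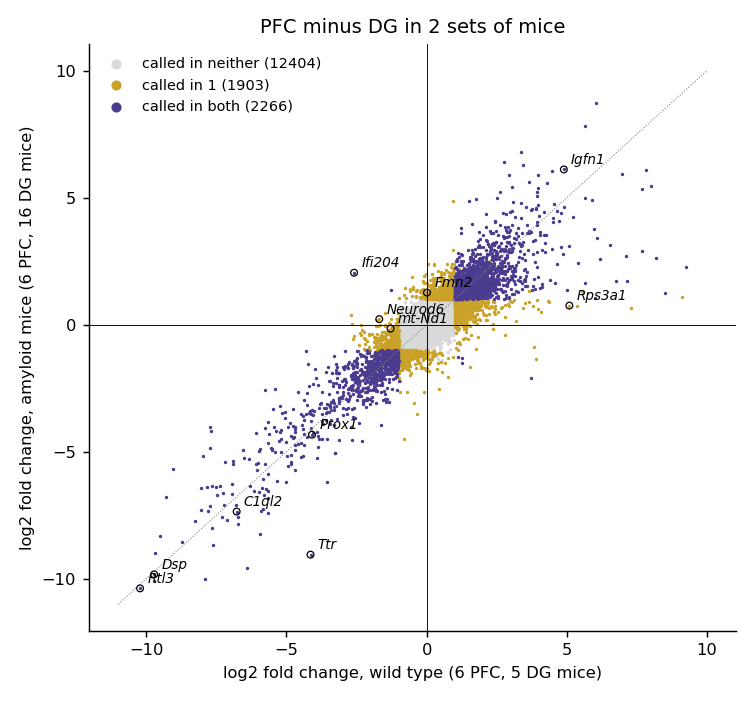
Each point is 1 of the genes tested in both sets, with the log2 fold change (PFC minus DG) in wild-type mice on the horizontal axis and in amyloid mice on the vertical axis, and the dotted line marks equal values. Purple genes were called in both (2266), yellow in 1 (1903) and grey in neither (12404), with Dsp and Rtl3 near the line and Ifi204, Neurod6 and Rps3a1 away from it.

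Genes called in both sets but in opposite directions numbered 6. Bace2 had 1.27 in wild type and -1.30 in amyloid mice, Siglecf, a receptor of myeloid cells, -1.27 and 1.36, Ifi204, an interferon-induced gene, -2.59 and 2.04, and the mitochondrial tRNA gene mt-Tl2 1.26 and -1.49. The pseudogenes or gene models Glns-ps1 (3.73 and -2.12) and Gm7985 (1.11 and -1.29) share 34.2% and 38.3% of their words with other genes. These differences between the sets were not tested.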

How the data were processed

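RNA was isolated from whole tissue with TRIZOL, libraries were made with the Illumina TruSeq RNA Sample Preparation v2 kit, and the authors deposited raw read counts per Ensembl gene, 1 table per library. Per the study's methods reads were aligned with STAR to mm10, the build that the submitters' processing notes also name, and counted with HTSeq; the annotation release and strand setting are not given in the sources used here. Of 48709 IDs, 48349 matched GENCODE M21 (GRCm38), from which symbols, coordinates and exon lengths were taken.

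Counts were tested in edgeR 4.0.16 (R 4.3.3; TMM, filterByExpr, robust quasi-likelihood F-test) on the 6 PFC and 5 DG libraries, without covariates. p-values were adjusted over all genes tested by Benjamini-Hochberg. CPM use TMM library sizes. DESeq2 1.42.0 was an alternative. In the amyloid set, the 2 runs of a mouse were summed. The tests were checked on simulated counts. Genes were named by a fixed rule: the 15 largest log2 fold changes each way among called coding genes with at least 5 CPM, no overlap and the same call in amyloid mice, the 10 largest differences per kb each way, members of 52 lists, and Fmn2; the on/off genes, the opposite genes and the copies were chosen after their values were seen. Copies were found from shared 50-base words of annotated transcripts, 1 in 4 sampled. The members and lists were chosen with earlier results of these data known.

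Replicate numbers in the titles occur in both groups (5 shared). Same-numbered mice are different animals, and their deviations correlated between -0.05 and 0.06 (mean 0.02, others -0.004), so the numbers do not pair the samples. Some list members are not reported here.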

Additional observations from a re-analysis of the deposited data

Results flagged for a closer look

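In 142 groups of 5 or 6 mice, 8 had a mouse whose gap to the nearest other exceeded Dixon's 95% critical value, and chance gives about 1 in 20. DG mouse 3 stood apart for Igfn1 (6.25 CPM, others 0.374 to 1.14), Myl4 (4.34, others 1.23 to 1.62) and Adra1b (4.00, others 1.67 to 2.3), each toward the PFC level, and for Tuba1c (9.21, others 10.3 to 10.5). DG mouse 5 stood apart for Slc9a4 (39.7 CPM, others 25.9 to 27.9). The summed ependymal markers were at 8.44 CPM in PFC mouse 3 (others 4.26 to 5.09) and at 17.4 CPM in DG mouse 4 (others 4.45 to 5.30). The summed immediate early genes were at 2310 CPM in PFC mouse 6 (others 543 to 1140).

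Ifi204 and mt-Tl2 moved in opposite directions in wild-type and amyloid mice without overlap of the regions in either set: Ifi204 had a log2 fold change of -2.59 in wild type and 2.04 in amyloid mice, and mt-Tl2 had 1.26 and -1.49. The difference between the sets was not tested. Ifi204 shares 20.4% of its 50-base words with other genes.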

How the results depend on the processing

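The number of called genes stayed within 1.5 times of the reported one under most alternatives, with 2963 to 3764 in the wild-type comparison (DESeq2 3397, 8-month DG 3658), except without the filter on low counts (5659 in wild type, 6828 in amyloid mice and 1325 for DG against DG), at a log2 threshold of 0.5 (7492, 7867 and 2952, and 336 for DG at 8 against 3 months) and with no fold threshold (12419, 12586, 7361 and 1038). Leaving out 1 mouse at a time gave 3195 to 3539 calls in wild type, 735 to 900 for DG against DG, and 4 to 157 for age, where the 33 calls depend on single libraries (157 without 8-month mouse 2, 4 to 8 without 3-month mouse 1, 2 or 3, 6 without 8-month mouse 1 and 11 without 8-month mouse 3). In the amyloid comparison no mouse was left out. With the replicate number as a block, 3254 genes were called in wild type, 3643 in amyloid mice, 823 for DG against DG and 62 for age; the numbers share no animal, and the cause of the last was not tested. The log2 fold change of Fmn2 lay between -0.016 and 0.050 when 1 mouse was left out, below zero without DG mouse 4 (-0.016) or 5 (-0.01), and was 0.21 against 8-month DG (adjusted p = 0.0438, under the fold threshold). Over 203 named genes and 4042 alternative values no direction changed and 3940 kept their call, and 37 genes lost it at least once, most often after the length and GC correction (23 genes) and against 8-month DG (15 genes). For zinc finger genes that correction moved 9 and 29 calls to 11 and 14. The alternatives without shared-word genes and without DG mice 1, 2 and 3 were chosen after the data were seen. Depth limits genes with few reads in a group, whose fitted fold changes depend on the prior count.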

Other observations

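The counts of the following lists stand beside 12.1% of all genes called higher in PFC and 8.08% called higher in DG. Of 281 solute carriers, which move ions, nutrients and transmitters across membranes, 30 were called higher in PFC and 19 in DG, led by Slc7a3 (17.2 against 2.22 CPM) and Slc9a5 (59.5 against 11.3) in PFC and by Slc9a4 and Slc29a4 (4.88 against 52.2), a monoamine transporter, in DG. Slc28a1 had the largest value toward PFC but at 1.02 against 0.0129 CPM. Of 353 zinc finger genes 9 were called higher in PFC and 29 in DG, among them Zfp189 (8.30 against 45.7 CPM), but after the correction for length and GC content 11 and 14. Of 5 zinc and vesicular transporters none was called in edgeR and 1 higher in DG in DESeq2, and 5 had an unadjusted p under 0.05 in edgeR. Slc17a7, the vesicular glutamate transporter of cortex and hippocampus, stood at 1591 against 1332 CPM. Slc17a6, the vesicular glutamate transporter of thalamus and brainstem, was at 56.0, 42.6, 20.1, 15 and 3.91 CPM in DG mice 1 to 5 and at 9.51 to 12.5 CPM in PFC, the same order of DG mice as for Meis2. Of 11 striatal markers 3 were called higher in PFC, among them Adora2a and Rgs9, and Drd2 in DG.

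The insulin-degrading enzyme gene Ide was at 53.1, 51.0, 83.2, 53.5, 105.6 and 87.3 CPM in PFC mice 1 to 6 and at 55.4 to 62.4 CPM in DG. The pseudogene Rps3a3 was at 40.3 CPM or more in each of the 18 DG mice of the Fmn2 experiment, at 0.0902 CPM or less in all 12 PFC mice and at 0.235 to 56.98 CPM in the 16 amyloid DG mice, of which 2 were under 1.0 CPM and 14 over 10 CPM.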
